A study of Mus musculus with 16 samples.

Results

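The solute carrier genes of families SLC1 to SLC16 were examined in the accessible chromatin of mouse embryonic stem (ES) cells. Members were the protein-coding genes of the GENCODE M21 annotation on chromosomes 1 to 19 whose symbol is Slc, a family number from 1 to 16, a letter and a number, such as Slc2a3. This rule gave 129 genes of 20807 autosomal protein-coding genes. ATAC-seq, in which a transposase cuts and tags accessible DNA, was performed on 12 libraries of SBROS cells, a CGR8-derived line with fluorescent reporters for Sox1 and Brachyury, OCT4 fused to a HALO tag on 1 allele and SOX2 fused to a SNAP tag on both alleles. The cells grew in GMEM with serum, LIF, CHIR99021 and PD184352, and G1 cells were sorted into 4 populations of 3 libraries each. SHOH cells were high in both SOX2 and OCT4, SHOL cells were high in SOX2 and low in OCT4, SLOH cells were low in SOX2 and high in OCT4, and SLOL cells were low in both. The study asked how the levels of SOX2 and OCT4 bear on chromatin accessibility. The data used here are the authors' merged list of 81132 accessible regions from all 12 libraries (mm10), which holds positions and no read count or level, so the number of reads behind each region is unknown, the populations were not compared and no value has a replicate error.

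Solute carriers are membrane proteins that move sugars, amino acids, ions, carboxylates, peptides and other small solutes across the plasma membrane and the membranes of organelles. Some let a solute run down its own gradient, and others couple its uptake to the gradient of sodium, protons or chloride. Growing ES cells take up much glucose and glutamine and release lactate, while many other carriers do their known work in the kidney tubule, the gut, the liver or at synapses.

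A promoter was called open where a region of the list was centred within 1 kb of any annotated transcription start site (TSS) of the gene. Of the 129 genes, 96 had an open promoter (74.4%, 95% Wilson interval 66.3 to 81.2%), against 69.5% of all autosomal protein-coding genes and 77.2% (169 of 219) of the Slc genes of family 17 and above. The interval covers the number of genes only, since the genes of a family are not replicates. By gene length, 75% of members under 20 kb were open, against 56.3% of all genes of that length. From 20 to 60 kb the share was 71.0% against 80.8%, and from 60 kb it was 80% against 90.0%. Members were longer, with a median of 37175 bp against 17629 bp, so the 69.5% is not matched for length. Further than 1 kb from its TSSs, a region lay in the gene body of 88 members, against 43.4% of all autosomal protein-coding genes. A region of either kind was found at 117 members, against 76.2% of all autosomal protein-coding genes. The members held 390 regions in all, 145 at promoters and 245 in gene bodies. The 12 members with no region were Slc1a7, Slc3a1, Slc5a12, Slc6a4, Slc6a18, Slc7a12, Slc9a4, Slc10a1, Slc10a5, Slc11a1, Slc15a2 and Slc15a3.

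The open and closed states are shown here by promoter sequences of SLC2, SLC7 and SLC16, chosen as the open member of each family with the highest and the closed member of SLC2 with the lowest ratio of observed to expected CpG within 500 bp of the principal TSS. SLC16 had no closed member. Each sequence holds the 200 bases before the principal TSS, read from the RefSeq genome GRCm38.p6 on the strand of the gene, with every CpG in capitals.
Slc2a1: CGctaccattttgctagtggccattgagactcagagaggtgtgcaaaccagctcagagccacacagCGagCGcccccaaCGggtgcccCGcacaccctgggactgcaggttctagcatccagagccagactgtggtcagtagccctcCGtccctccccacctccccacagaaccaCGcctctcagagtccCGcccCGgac
Slc2a7: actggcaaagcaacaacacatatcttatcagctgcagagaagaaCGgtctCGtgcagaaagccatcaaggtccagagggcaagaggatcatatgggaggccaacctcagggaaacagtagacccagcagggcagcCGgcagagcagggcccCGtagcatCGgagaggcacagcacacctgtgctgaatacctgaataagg
Slc7a5: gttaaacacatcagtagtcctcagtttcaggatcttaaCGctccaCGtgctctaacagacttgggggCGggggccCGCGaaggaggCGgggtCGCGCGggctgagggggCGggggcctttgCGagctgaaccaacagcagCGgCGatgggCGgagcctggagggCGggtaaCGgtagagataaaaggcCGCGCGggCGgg
Slc16a1: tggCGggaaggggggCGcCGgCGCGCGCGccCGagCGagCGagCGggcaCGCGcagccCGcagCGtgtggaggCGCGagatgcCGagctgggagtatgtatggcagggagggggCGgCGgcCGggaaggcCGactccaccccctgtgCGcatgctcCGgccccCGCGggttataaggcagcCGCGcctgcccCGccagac
The open promoters were those of Slc2a1 (chr4:119108511-119108710, plus strand), Slc7a5 (chr8:121907695-121907894, minus strand) and Slc16a1 (chr3:104638468-104638667, plus strand). All 200 bases of each lay inside an accessible region. They held 9, 20 and 29 CpGs, and the ratio around the TSS was 0.808, 1.03 and 0.939. The closed promoter was that of Slc2a7 (chr4:150148772-150148971, plus strand), a hexose transporter gene. None of its printed bases lay in a region. It held 5 CpGs, with a ratio of 0.151. The printed bases overlapped no annotated exon except at Slc7a5, where 62 of them lay in an exon of BC048644, a long noncoding RNA gene on the opposite strand.

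**Figure D1:**
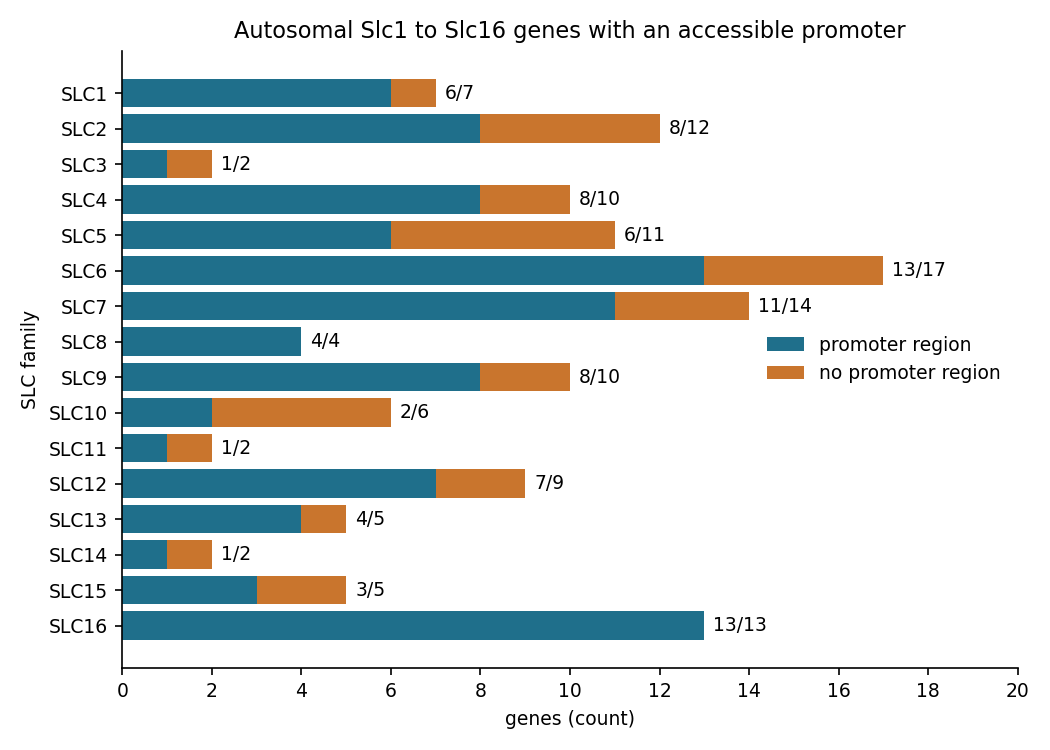
Members with (blue) and without (orange) a region centred within 1 kb of a TSS, as counts of genes in each SLC family. SLC8 and SLC16 were open at every autosomal member, and SLC10 at 2 of 6.

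In the SLC2 family of facilitated hexose transporters, 8 of 12 genes were open, namely Slc2a1, Slc2a3, Slc2a4, Slc2a6, Slc2a8, Slc2a10, Slc2a12 and Slc2a13. The closed ones were Slc2a2, Slc2a5, Slc2a7 and Slc2a9. Slc2a3, which encodes the high-affinity glucose transporter GLUT3, had the most regions of any member over its full annotated length. Its 15 regions were 4 at promoters, the widest 1053 bp, and 11 in the gene body, or 14.9 per 100 kb of gene. Of these, 3 promoter and 10 body regions lay upstream of the principal TSS, and the count rests on other transcripts that are annotated to start further upstream. Slc2a1, which encodes GLUT1, had a single promoter region of 1012 bp, centred on an annotated TSS, and 1 body region. Slc2a4 encodes the insulin-responsive transporter of muscle and fat, and it had 2 promoter regions, the wider 407 bp. The liver and pancreas transporter gene Slc2a2 had its closest region 1929 bp upstream of a TSS. For the intestinal fructose transporter gene Slc2a5 that distance was 1082 bp, the smallest among the closed members.

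In the SLC5 family of sodium-coupled cotransporters, 6 of 11 genes were open, namely Slc5a2, Slc5a3, Slc5a6, Slc5a7, Slc5a8 and Slc5a11. Slc5a1, Slc5a5, Slc5a9, Slc5a10 and Slc5a12 were closed. The inositol transporter gene Slc5a3 had a promoter region of 837 bp, and Slc5a6, which encodes the carrier of biotin and pantothenate, one of 926 bp. Both regions also lay within 1 kb of a TSS of another gene, Mrps6 and Atraid respectively. Slc5a7, which brings choline into cholinergic neurons, had a region of 671 bp. The glucose cotransporter genes of the kidney and gut differed. Slc5a2 had a region of 578 bp near 1 of its 12 TSSs, and not near the principal one. At Slc5a1 the closest region was centred 1478 bp upstream. The thyroid iodide transporter gene Slc5a5 had a CpG ratio of 0.765 and 2 body regions, and its closest region was centred 1243 bp downstream of its TSS. Over both families and by substrate, 11 of 18 carriers of sugars and polyols were open (61.1%). All 18 had a region of some kind, against 90.7% of all members and 76.2% of all autosomal protein-coding genes.

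In the SLC1 family of glutamate and neutral amino acid transporters, 6 of 7 genes were open, namely Slc1a1, Slc1a2, Slc1a3, Slc1a4, Slc1a5 and Slc1a6. The exception was Slc1a7, a transporter gene of the retina, whose closest region was centred 15581 bp away. Slc1a5, which encodes the glutamine transporter ASCT2, had a promoter region of 540 bp. Slc1a4, which encodes the related ASCT1, had one of 1226 bp. The glial glutamate transporter genes were open too. Slc1a2 had 2 promoter regions, the wider 1095 bp, and Slc1a3 had 1 of 661 bp.

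SLC3 proteins are the heavy chains that bring the SLC7 light chains to the membrane. Slc3a2, whose product pairs with Slc7a5 and Slc7a11, was open, with 3 promoter regions, the widest 1175 bp. Slc3a1, whose product pairs with Slc7a9 in the kidney tubule, was closed, with its closest region 4545 bp upstream. In the SLC7 family, 11 of 14 genes were open, namely Slc7a1, Slc7a2, Slc7a4, Slc7a5, Slc7a6, Slc7a7, Slc7a8, Slc7a9, Slc7a10, Slc7a11 and Slc7a14. Slc7a12, Slc7a13 and Slc7a15 were closed, with closest regions 34159, 16137 and 7992 bp away. The arginine transporter gene Slc7a1 had 4 promoter regions, the widest 1044 bp, and 3 body regions. Slc7a5, which encodes the leucine transporter LAT1, had a promoter region of 1139 bp, and Slc7a6 one of 584 bp. Slc7a11, which encodes the cystine transporter that feeds glutathione synthesis, had a promoter region of 803 bp and 8 body regions. Slc7a9 had a promoter region of 579 bp, so the light and heavy chains of the tubular cystine transporter differed in state.

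The SLC6 family carries neurotransmitters, osmolytes and amino acids with sodium and chloride. Of its 17 genes, 13 were open, among them Slc6a2, Slc6a3, Slc6a5, Slc6a6, Slc6a7, Slc6a9, Slc6a11, Slc6a15, Slc6a16, Slc6a17, Slc6a19 and Slc6a21. Slc6a4, Slc6a12, Slc6a13 and Slc6a18 were closed. Among the monoamine transporter genes, Slc6a2 (noradrenaline) had a promoter region of 1201 bp and Slc6a3 (dopamine) one of 919 bp. Slc6a4 (serotonin) had no region of either kind, although its CpG ratio was 0.758, and its closest region was centred 1176 bp upstream. The glial transporter gene Slc6a11 had 2 promoter regions, the wider 339 bp. Both glycine transporter genes were open. Slc6a9 had a promoter region of 689 bp, and Slc6a5 one of 444 bp that was not within 1 kb of its principal TSS. Slc6a6, which encodes the taurine transporter, had 3 promoter and 7 body regions, the widest at the promoter being 839 bp. The intestinal amino acid transporter gene Slc6a19 had 1 promoter region of 285 bp, again away from the principal TSS. Slc6a15 and Slc6a17, neutral amino acid transporter genes of neurons, had promoter regions of 1590 and 1335 bp, and that of Slc6a15 was the widest of any member.

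In the SLC15 family of proton-coupled peptide transporters, Slc15a1, Slc15a4 and Slc15a5 were open, and Slc15a2 and Slc15a3 were closed with closest regions 7498 and 3435 bp away. The intestinal peptide transporter gene Slc15a1 had a promoter region of 440 bp. By substrate, 26 of 34 carriers of amino acids and peptides were open (76.5%), and 10 of 13 in the class of neurotransmitters and osmolytes (76.9%), where Slc6a16 and Slc6a21 were placed by family since their substrates are not well known.

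In the SLC16 family of monocarboxylate transporters, all 13 autosomal genes were open, namely Slc16a1, Slc16a3, Slc16a4, Slc16a5, Slc16a6, Slc16a7, Slc16a8, Slc16a9, Slc16a10, Slc16a11, Slc16a12, Slc16a13 and Slc16a14. Slc16a1, which encodes the lactate and pyruvate transporter MCT1, had 1 promoter region of 1365 bp. Slc16a3, which encodes the lactate exporter MCT4, had 2, the wider 489 bp. Slc16a6 and Slc16a7 had widest promoter regions of 1365 and 1294 bp, so SLC16 gave 3 of the 5 widest among the members. Slc16a5, Slc16a8 and Slc16a11 were open near another TSS but not within 1 kb of the principal one, and the count with principal TSSs was 10 of 13 (76.9%), against 64.8% of all autosomal protein-coding genes.

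SLC10 holds bile acid transporters and their relatives, and 2 of its 6 genes were open, Slc10a4 and Slc10a7 (33.3%, interval 9.68 to 70.0%, which held the 69.5% of all autosomal protein-coding genes). Slc10a1, Slc10a2, Slc10a5 and Slc10a6 were closed. The bile acid uptake gene of the liver, Slc10a1, had its closest region 13820 bp away, and that of the ileum, Slc10a2, 1721 bp away. Slc10a4 had a promoter region of 797 bp. Slc10a7 had 1 promoter region of 1168 bp, shared with Rbmxl1, and 13 body regions, the highest count of body regions among the members. In the SLC13 family of sulphate and carboxylate transporters, Slc13a2, Slc13a3, Slc13a4 and Slc13a5 were open, and Slc13a1 was closed with its closest region 2392 bp away. The promoter region of Slc13a3, a dicarboxylate transporter gene of the kidney, was 197 bp wide. In the class of organic anions, 20 of 26 genes were open (76.9%), with several SLC16 genes of poorly known substrate placed there by family.

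The ion carriers keep cell pH, volume and calcium. In the SLC4 bicarbonate family, 8 of 10 genes were open, namely Slc4a2, Slc4a3, Slc4a4, Slc4a5, Slc4a7, Slc4a8, Slc4a9 and Slc4a11. Slc4a1, the anion exchanger gene of red cells, was closed with its closest region 3501 bp downstream, as was Slc4a10, at 1118 bp. The widely used anion exchanger gene Slc4a2 had a promoter region of 517 bp, shared with Cdk5, and Slc4a7 had one of 1146 bp. Slc4a5 had 2 promoter and 8 body regions. All 4 genes of sodium/calcium exchange were open, Slc8a1, Slc8a2, Slc8a3 and Slc8b1. At Slc8a1, which encodes the exchanger of heart muscle, the 3 promoter regions lay near 1 of 4 TSSs and not near the principal one.

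In the SLC9 family of sodium/proton exchangers, 8 of 10 genes were open, among them Slc9a2, Slc9a3, Slc9a5, Slc9a8, Slc9a9, Slc9b1 and Slc9b2. Slc9a4, of the stomach, and Slc9c1, of sperm, were closed, with closest regions 51436 and 39379 bp away. The organelle exchanger genes Slc9a8 and Slc9a9 had widest promoter regions of 803 and 622 bp, and Slc9a9 had 12 body regions over 560537 bp.

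In the SLC12 family of cation-chloride cotransporters, 7 of 9 genes were open, among them Slc12a2, Slc12a4, Slc12a5, Slc12a7, Slc12a8 and Slc12a9. The closed genes were the targets of the loop and thiazide diuretics in the kidney tubule, Slc12a1 and Slc12a3, with closest regions 11777 and 1760 bp away. Slc12a2, the widely used relative of Slc12a1, had a promoter region of 577 bp centred 630 bp upstream of a TSS. Promoter regions were 644 bp wide at Slc12a4, 1148 bp at Slc12a7 and 793 bp at Slc12a9. Slc12a5, which sets chloride in neurons, had 2 promoter regions, the wider 489 bp. The metal transporter gene Slc11a2, which serves iron uptake, was open with a region of 557 bp, and its macrophage relative Slc11a1 was closed with its closest region 3383 bp away. By substrate, 28 of 36 carriers of inorganic ions were open (77.8%). A body region was found at 32 of these 36 genes (88.9%), against 43.4% of all autosomal protein-coding genes. Their median length was 50222 bp. By length, a body region was found at 5 of the 7 under 20 kb, 13 of the 14 from 20 to 60 kb and 14 of the 15 from 60 kb, against 20.8%, 57.4% and 86.0% of all genes of those lengths. The urea transporter genes are neighbours. Slc14a1, of red cells, was open with a region of 351 bp, and Slc14a2, of the kidney, was closed but held 10 body regions over 450795 bp.

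The shares of the 5 substrate classes with more than 2 genes ran from 61.1% to 77.8%, and the interval of each, such as 38.6 to 79.7% for sugars and polyols, held the 69.5% of all autosomal protein-coding genes. So did the interval of each family except SLC16 (77.2 to 100%). Near the 1 kb limit, the members just inside were Slc7a14, with its closest region centred 964 bp from a TSS, Slc7a8, at 718 bp, and Slc14a1, at 643 bp. Those just outside were Slc2a5 at 1082 bp, Slc4a10 at 1118 bp and Slc6a4 at 1176 bp. Of the 33 closed members, 11 had a region centred within 2 kb of a TSS and 11 had none within 10 kb. Windows of 2 kb raised the open share from 74.4% to 82.9% of members and from 69.5% to 71.9% of all autosomal protein-coding genes. The share beyond 10 kb was not counted for all closed genes. The median distance was 3501 bp for the closed members and 15676 bp for all closed autosomal protein-coding genes. Closed members had a median of 4 TSSs and 33738 bp, against 2 TSSs and 7717 bp for all closed genes. The distance was to the nearest of all TSSs, so the medians are not matched for either.

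All 25 members listed as broadly used carriers were open, and 16 of the 28 listed as tissue-restricted (57.1%, interval 39.1 to 73.5%), against 69.5% of all autosomal protein-coding genes, which lay inside that interval. Within the second list, the genes of neurons and glia were mostly open, 6 of 7 and 3 of 3, with Slc6a4 the exception. Their intervals, 48.7 to 97.4% and 43.9 to 100%, held the 69.5% of all autosomal protein-coding genes. The genes of the kidney tubule were open in 3 of 6 cases (Slc5a2, Slc7a9 and Slc13a3) and those of the small intestine in 2 of 5 (Slc6a19 and Slc15a1). Slc5a2 and Slc6a19 had no region within 1 kb of a TSS of a protein-coding transcript, which left 2 of 6 and 1 of 5, and the region of Slc13a3 was under 200 bp. Both liver genes, the thyroid gene and the macrophage gene were closed, the gene of muscle and fat (Slc2a4) was open, and 1 of 2 red cell genes (Slc14a1) was open. With windows of 2 kb, 23 of the 28 were open (82.1%), against 71.9% of all autosomal protein-coding genes. CpG content differed between the lists too, with 17 of 25 broad and 5 of 28 restricted genes CpG-rich, meaning a ratio of at least 0.6 and a GC content of at least 55%. Of the CpG-poor genes, 8 of 8 broad and 13 of 23 restricted ones (56.5%, interval 36.8 to 74.4%) were open, against 49.2% of all CpG-poor genes, and of the CpG-rich genes 17 of 17 and 3 of 5, against 98.3% of all CpG-rich genes. CpG content was read around the principal TSS. Among the 13 open CpG-poor restricted genes, Slc5a2, Slc6a5, Slc6a19 and Slc14a1 had no region within 1 kb of it, nor had Slc4a2 among the 17 broad CpG-rich genes. Shares by CpG class were not counted at the principal TSS, so the 56.5% is not read as higher than the 49.2%. An open promoter is not a measure of transcription, and no RNA was analysed here.

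Listed marker genes were read for the cells themselves. Against 69.5% of all autosomal protein-coding genes, 9 of 10 ES cell marker genes were open, and Nanog had its closest region centred 4329 bp from a TSS. The paper measured NANOG protein in SBROS cells, so a closed call here does not show that a gene was silent. Markers of hepatocytes and enterocytes were open in 0 of 3 cases each, and those of the kidney tubule in 1 of 3 (Lrp2). All 3 neuronal markers were open, as were all 4 of primitive endoderm, 4 of trophectoderm, 4 of fibroblasts, 2 of mesoderm and 2 of neuroectoderm. The 3 neuronal markers had a median length of 421836 bp, and 90.0% of all autosomal protein-coding genes from 60 kb were open. Since all markers of several other cell types were open too, nothing particular to neurons is read from these markers. Whether other cells in the culture added regions to the list was not tested.

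**Figure D2:**
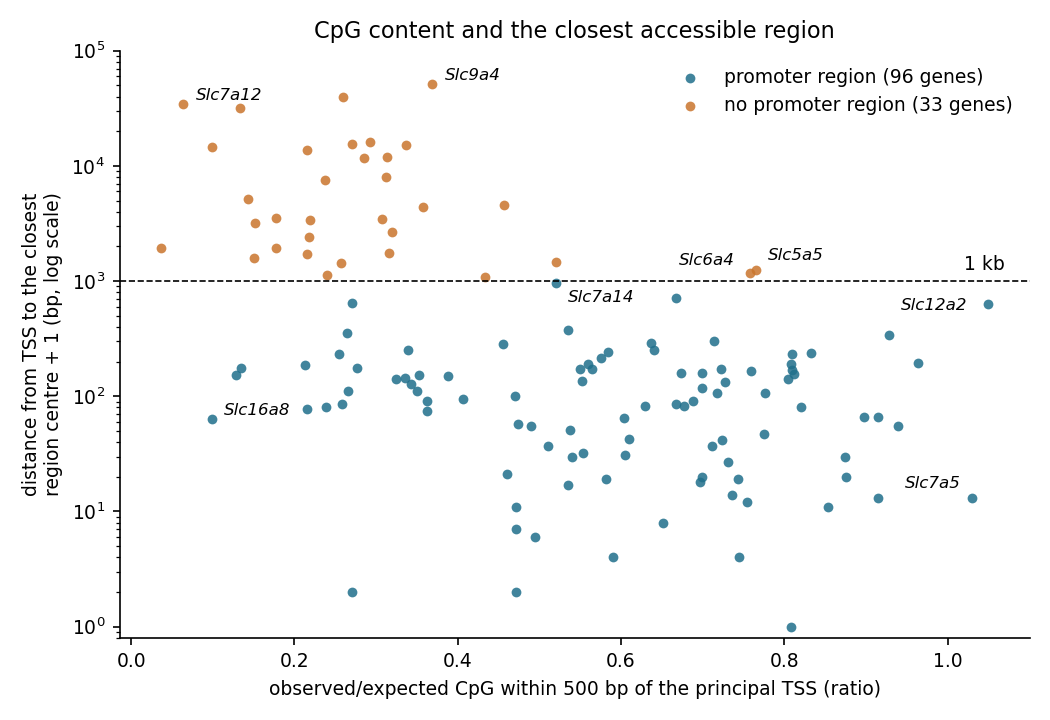
Each point is a member, with the ratio of observed to expected CpG on the x axis and the distance from the nearest TSS to the closest region centre, plus 1 bp, on a log y axis. The dashed line marks 1 kb, and Slc5a5 and Slc6a4 were the CpG-rich members above it.

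CpG ratios were higher at the open than at the closed members. The median ratio was 0.605 for the 96 open and 0.259 for the 33 closed members, against 0.713 and 0.162 for all open and closed autosomal protein-coding genes. Of 46 CpG-rich members 44 were open (95.7%), against 98.3% of all CpG-rich genes, and Slc5a5 and Slc6a4 were the exceptions. Of 83 CpG-poor members 52 were open (62.7%, interval 51.9 to 72.3%), against 49.2% of all CpG-poor genes and 59.7% of CpG-poor Slc genes of family 17 and above. The CpG class was read around the principal TSS, while a promoter was open near any TSS. Of the 11 open members without a region near the principal TSS, all but Slc4a2 were CpG-poor. With principal TSSs only, 65.9% of members and 64.8% of all autosomal protein-coding genes were open. Shares by CpG class were not counted that way, so whether CpG-poor members would then exceed all CpG-poor genes was not tested. The CpG-rich share was 35.7% for members against 41.3% of all genes. At a ratio from 0.25 to 0.5, 26 of 41 members were open (63.4%), against 61.1% of all genes. Under 0.25, 6 of 21 were open (28.6%, interval 13.8 to 50.0%), against 16.3%. Those 6 were Slc4a9, Slc5a2, Slc5a11, Slc13a2, Slc16a4 and Slc16a8, named after their values were seen. Of these, Slc4a9, Slc5a2 and Slc16a8 were open near another TSS but not within 1 kb of the principal one, where the ratio was read. The 28.6% is therefore not the share open at the TSS that the ratio describes. From 0.5 to 0.75, 41 of 42 members were open (97.6%), against 96.1%, with Slc5a1 the exception. From 0.75 up, 23 of 25 were open (92.0%), against 98.5%.

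**Figure D3:**
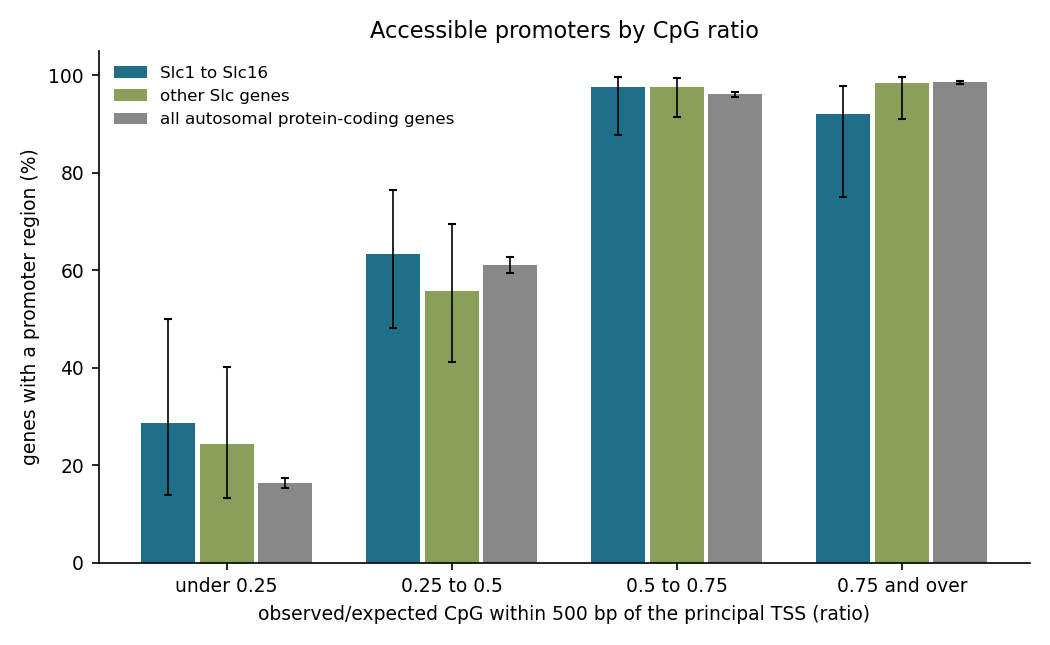
Share of genes with a promoter region, in percent, by class of observed to expected CpG, for members, other Slc genes and all autosomal protein-coding genes. The ratio was read around the principal TSS, and a promoter region could lie near any TSS of the gene. Bars start at 0 and error bars are 95% Wilson intervals over genes. The share of members rose from 28.6% under 0.25 to 97.6% from 0.5 to 0.75, and was 92.0% from 0.75 up.

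Promoter regions lay close to the TSSs. The median distance of the closest region centre was 90 bp for the open members and 79 bp for all open genes, and 79 of the 96 (82.3%) lay within 200 bp, against 80.4% of all open genes. Several promoter regions were found at 35 members, or 36.5% of the open ones, against 31.2% of all open genes. Of the 145 promoter regions, 58 were centred in an exon of the gene, 48 in an intron and 39 outside the gene. The widest promoter region per gene had a median of 691.5 bp (quartiles 488.5 and 1005 bp), against 764 bp for all open genes. By substrate the median was 578 bp for sugars and polyols, 654 bp for inorganic ions, 716.5 bp for amino acids and peptides, 757 bp for neurotransmitters and osmolytes and 831 bp for organic anions.

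**Figure D4:**
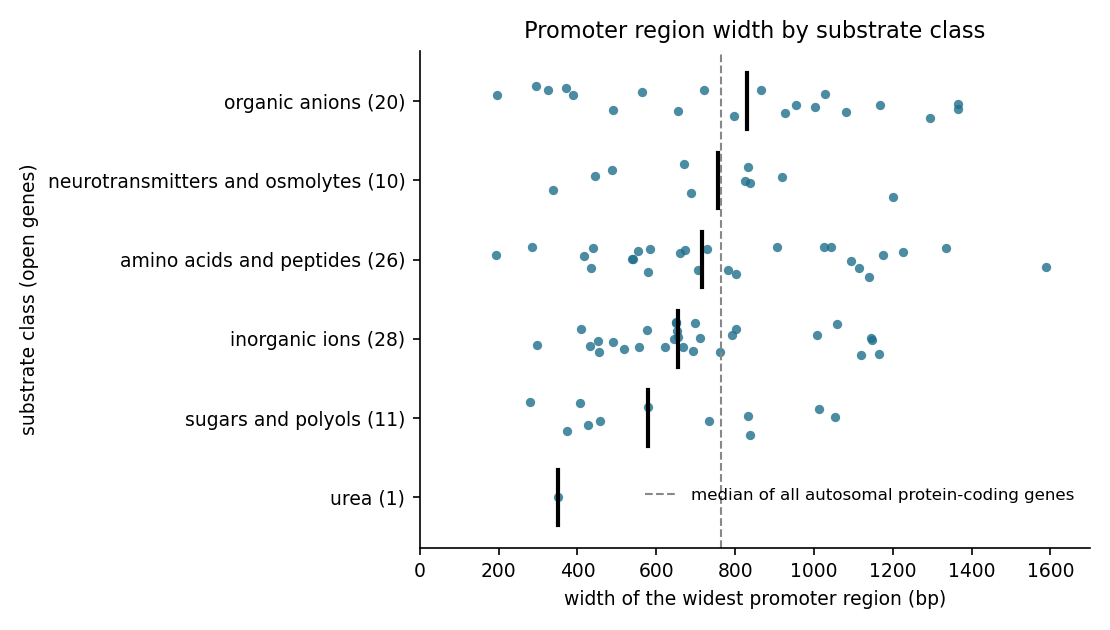
Width of the widest promoter region of each open member (points, bp) by substrate class, with the number of genes in parentheses, the class median as a black bar and the median of all autosomal protein-coding genes, 764 bp, as a dashed line. Points are spread vertically for display only. The classes overlapped over most of their range.

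At 11 open members (11.5%) no region lay within 1 kb of the principal TSS, against 6.66% of all open genes. They were Slc4a2, Slc4a9, Slc5a2, Slc6a5, Slc6a19, Slc8a1, Slc14a1, Slc15a5, Slc16a5, Slc16a8 and Slc16a11. At 10 open members (10.4%), every promoter region also lay within 1 kb of a TSS of another gene, against 25.7% of all open genes. Among those were Slc4a2, Slc5a3, Slc5a6, Slc7a5, Slc10a7, Slc11a2, Slc13a5, Slc16a5 and Slc16a6. The list does not say which gene such a region serves. In 11 pairs of members the genes were next to each other with a gap of at most 50 kb. The state was the same in 8 pairs, 6 of them open and 2 closed. It differed between Slc9a4 and Slc9a2, between Slc6a18 and Slc6a19 and between Slc14a1 and Slc14a2. With 74.4% of members open, many pairs share a state without any link between neighbours. The share of same-state pairs among all neighbouring genes was not counted, so the 8 pairs are a description only. No region was assigned to 2 members. The gap of 372 bp between Slc16a11 and Slc16a13 lay at the ends away from their principal TSSs, and each had regions of its own.

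The 245 body regions comprised 216 centred in introns and 29 in exons. Their median width was 299 bp, against 559 bp for the promoter regions. The members with the most regions in all were Slc2a3 with 15, Slc10a7 and Slc9a9 with 14 each, and Slc4a5, Slc6a6 and Slc14a2 with 10 each. The median length was 37175 bp for members, against 17629 bp for all autosomal protein-coding genes. Per 100 kb of gene, the members held 2.92 body regions in total and all autosomal protein-coding genes 2.82. Among members under 20 kb, 37.5% (12 of 32) had a body region, against 20.8% of all genes of that length. From 20 to 60 kb the share was 74.2% (46 of 62), against 57.4%, and from 60 kb it was 85.7% (30 of 35), against 86.0%. Of the 33 closed members, 21 had a body region (63.6%), against 22.2% of all closed genes, whose median length was 7717 bp against 33738 bp for the closed members.

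**Figure D5:**
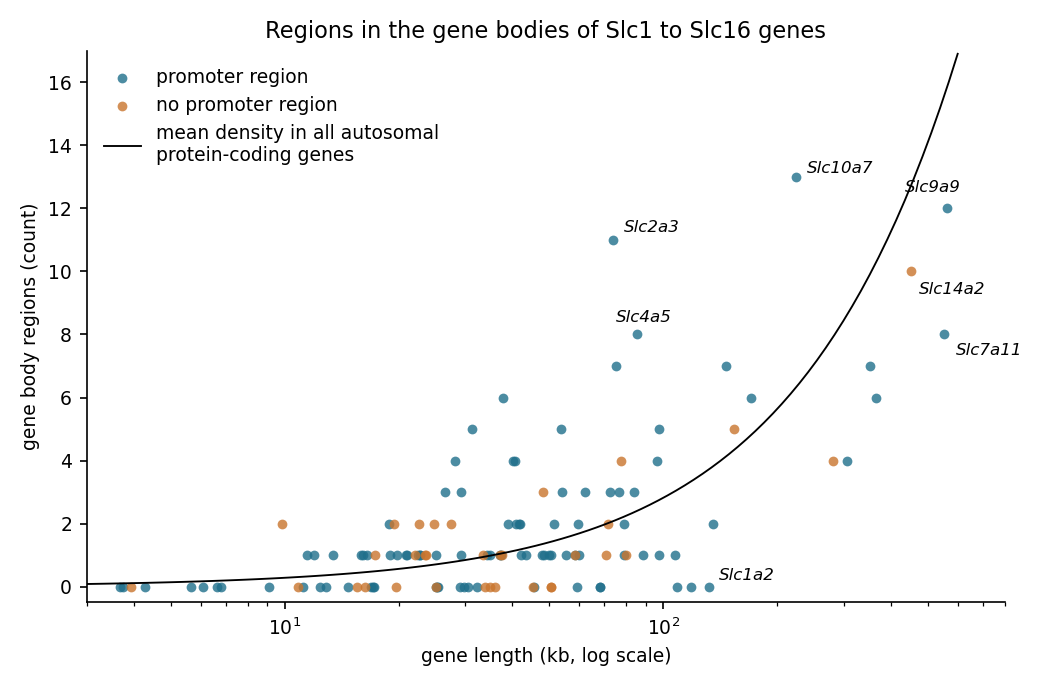
Body regions (count) of each member against gene length (kb, log scale), for members with (blue) and without (orange) a promoter region. The line is the 2.82 body regions per 100 kb found over all autosomal protein-coding genes. Slc2a3, Slc10a7 and Slc4a5 lay above it, and Slc7a11 and Slc9a9, the longest members, below it.

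Short motifs were counted on both strands in the members' regions. Among the 145 promoter regions, with a median width of 559 bp, 67.6% held the GC box GGGCGG, against 68.1% of the 19044 promoter regions of all autosomal protein-coding genes, with a median width of 608 bp. The CCAAT box was found in 44.1% against 46.1%, and TATAAA in 12.4% against 9.15%. The ETS core CCGGAAG was in 9.66% (14 regions), against 19.6%. The E-box CACGTG was in 20.7% against 16.1%, and the antioxidant response element core TGACNNNGC in 20.0% against 25.9%. The octamer ATGCAAAT, a motif bound by OCT4, was in 5 promoter regions (3.45%), against 1.93%, at Slc1a5, Slc6a15, Slc7a11, Slc9a2 and Slc12a2. In windows from 250 bp before to 50 bp after the principal TSS it was at 1 of 129 members (0.775%), against 1.62% of all genes. The SOX motifs CCTTTGT and CCATTGT were in 8.97% and 4.83%, against 9.60% and 4.29%. In the body regions the octamer was in 2.45% and the SOX motifs in 9.80% and 6.12%, against 2.57%, 9.89% and 6.05% of all body regions.

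The amino acid response element core TGATGNAA is bound by ATF4 when amino acids are short, and it is known at carriers that restore them. It was in 6.90% of the members' promoter regions against 3.56%, and in 2.86% of their body regions against 4.40%. In the windows around the principal TSS the core was found at 7 members (5.43%), against 3.36% of the windows of all genes. All 7 members were open, against 74.4% of all members, so the count is not read as a link between the core and openness. Of the 7, 5 were open near the principal TSS, and Slc15a5 and Slc16a11 near another TSS. The 7 genes were Slc1a4, Slc6a2, Slc7a7, Slc7a11, Slc9a9, Slc15a5 and Slc16a11. The sites inside an accessible region, at Slc1a4, Slc7a7 and Slc7a11, are shown on the strand of the gene with the core in capitals (GRCm38.p6), and this set was chosen after the values were seen.
Slc1a4: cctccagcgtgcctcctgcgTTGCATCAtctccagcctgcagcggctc
Slc7a7: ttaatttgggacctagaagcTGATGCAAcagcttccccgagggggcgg
Slc7a11: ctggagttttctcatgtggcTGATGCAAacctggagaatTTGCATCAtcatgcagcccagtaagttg
The sites lay at chr11:20332690-20332737, chr14:54417918-54417965 and chr3:50443633-50443699, all on the minus strand. Slc7a11 held 2 cores, in opposite directions, 64 and 45 bp before the principal TSS. The octamer of the Slc7a11 region overlapped the core nearer to the TSS. At Slc1a4 the core was at the TSS itself, and 24 of the printed bases lay in an exon. A match describes these bases and does not show that a factor was bound.

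Of 46 annotated partner genes of these carriers outside the families, 45 had an open promoter, against 69.5% of all autosomal protein-coding genes and 98.3% of the CpG-rich ones, Aldoa counting as 2 since its symbol has 2 entries in the annotation. They included all 15 entries of glycolysis and lactate and all 12 of glutamine and glutathione metabolism. All 10 in the list of ion pumps were open too, a list that also holds the kinase genes Wnk1, Stk39 and Oxsr1. Among 9 genes whose products bind carriers, such as Bsg, the partner of MCT1 and MCT4, the exception was Pdzk1, with its closest region 15300 bp away. CpG-rich promoters made up 67.4% of these 46 genes, against 35.7% of the members.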

How the data were processed

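Regions were taken from the list deposited by the authors, who aligned ATAC-seq reads to mm10 with STAR (2.5.3a), retained reads with a single mapping position, discarded duplicates using Picard, called peaks in each library with MACS2 (2.1.1.20160309), merged the peaks of the 12 libraries with BEDOPS and discarded peaks found in a ChIP-seq input. No shift for the transposase is named in the sources used here. A region of the list may come from 1 library or from all, and none exceeds its chromosome in GRCm38. The list holds only starts and ends, with no read counts, so no test was run and the reads behind each region are unknown. ChIP-seq samples were not analysed here.

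Regions were assigned to genes of GENCODE M21 by their centre: to a promoter within 1 kb of any TSS, otherwise to the gene body. The principal TSS was that of the coding transcript with the best APPRIS level. Python (3.11.15), numpy (2.4.6), pandas (2.3.3), scipy (1.17.1), pysam (0.24.0) and matplotlib (3.10.9) were used, and the assignment was tested on simulated data. Substrate classes followed the family, with single genes moved by their known substrate, and genes whose substrate is not well known, such as Slc6a16, Slc6a21 and several of SLC16, left in the class of their family. Named genes were all members by state, those of the broad and tissue-restricted lists with values, the 5 with the most regions, the 5 with the widest promoter region, 3 on each side of the limit and the exceptions within families. Some items that this rule takes are not reported here. The members and lists were chosen with earlier results of these data known. Alternatives changed the window, the TSSs, the regions and the genes counted.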

Additional observations from a re-analysis of the deposited data

How the results depend on the processing

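Open promoters numbered 84 to 107 of 129 members under 9 other ways of assigning regions, within 1.5 times the 96 reported. With 129 members, only a fall could have passed that limit, for open promoters and for genes with a body region. Of the members, 65 were open and 22 closed under every one of these settings, and 42 depended on the setting. Windows of 2 kb moved the open share to 91.7% for SLC2, 81.8% for SLC5, 92.3% for neurotransmitters and osmolytes, 88.9% for sugars and polyols and 82.1% for the tissue-restricted list, while that of all autosomal protein-coding genes was 71.9%. With windows of 500 bp the share of SLC14, and so of urea carriers, was 0%, as it was with the principal TSS only, which also gave 76.9% for SLC16. Leaving out regions within 1 kb of a TSS of another gene gave 0% for SLC11, 57.7% for organic anions, 16.7% for SLC10 and 36.4% for SLC5, and lowered the share of all autosomal protein-coding genes to 51.6% and that of the members to 66.7%. The cause is the construction of each setting, which adds or removes regions. Of 114 alternative values, 102 stayed within limits, namely the 95% interval of the reported share or median, or 1.5 times the reported count. The intervals of small families are wide, so the values of SLC10 and SLC5 above are among the 102 for that setting. All 7 members of the families on chromosome X were open, as was 1 of the 4 genes with a letter after the number.

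No paired analysis was possible because the list carries no value per library. Without read counts per region, a missing region cannot be told apart from a region too weak to be called, and a region present in 1 population only looks the same as one present in all.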
